A study of Homo sapiens with 30 samples.

Results

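CTCF degradation was followed here in cells that were already being treated with a DNMT1 inhibitor. The comparison rests on 6 of the 30 poly(A) RNA-seq samples of the series, chosen by their sample titles: 3 cultures of HT-CTCF cells that received HaloPROTAC3 and DNMT1i, against 3 cultures of HT-CTCF cells that received DNMT1i without HaloPROTAC3. HT-CTCF cells derive from HCT116, a human colorectal carcinoma line, and carry a HaloTag knocked in on both copies of CTCF. According to the methods of the study they were raised from single-cell clones, so values describe 1 engineered line and not HCT116 cells in general. HaloPROTAC3 is a small molecule that brings a HaloTag-bearing protein to the VHL ubiquitin ligase, which marks it for the proteasome. DNMT1i, an inhibitor of the maintenance DNA methyltransferase DNMT1, was present at 10 µM for 1 day in all 6 cultures, and HaloPROTAC3 was given before and during that day. The closest comparison, used below only to show where the 2 conditions part, is HaloPROTAC3 with DMSO against DMSO alone in the same cells (3 cultures each, DMSO at 0.1% and 1 day). It shares no library with the DNMT1i comparison.

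CTCF is a zinc finger protein that binds a GC-rich DNA motif, halts cohesin and so anchors chromatin loops and domain borders. At many genes it also sits next to the start site, on the promoter itself. Its binding is blocked at sites with a methylated CpG in the motif, and loss of maintenance methylation can open such sites. The comparison asks which transcripts change with HaloPROTAC3, which targets CTCF here, while methylation is being lost. No samples of the series without the HaloTag received HaloPROTAC3. Effects of the compound itself, of its use of VHL and of CTCF loss therefore cannot be told apart, nor can direct and later changes.

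The libraries held 4243092 to 9407430 counts in genes over the 12 HT-CTCF samples, and 4243092 to 7271323 over the 6 with DNMT1i. Of 60664 genes in the files, 12690 passed the filter on low counts and were tested. Values below are CPM (counts scaled to a common library size with TMM factors), and fold changes come from edgeR's quasi-likelihood test with Benjamini-Hochberg adjusted p-values over all 12690 genes. Among colon epithelial markers, 8 of 10 were expressed highly enough to be tested, and their summed level was 3238 to 3913 CPM with HaloPROTAC3 and DNMT1i against 3654 to 3752 CPM with DNMT1i alone. Leukocyte markers (0 of 7 tested) summed to at most 0.697 CPM in any of these 6 libraries, of the erythroid markers 1 of 8 was tested, and of the fibroblast markers 1 of 7 was tested, COL1A1. CTCF is removed as a protein, so its RNA does not check the labels. In bulk RNA a lower level in every cell and fewer cells that express a gene cannot be told apart.

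Sequence next to some of the genes that fell is shown before the values, picked because it holds a match to the letters described here. The lines below show stretches upstream of RefSeq start sites (GRCh38.p14), 5′ to 3′ along the gene's own strand, with the capitals marking a match on either strand to letters that are among the most fixed in the core of the CTCF motif: CC, 3 bases of any kind, AG, 2 bases of any kind and GGC, here called the looser form. NKD2, ZBTB39 and AGAP2-AS1 are 3 of the genes with the largest decreases. DMKN, EHD2, NR2C1 and MREG were chosen after their values were seen. They carry a stricter form that also needs an A after the CC and is contained in the looser one. Of the 12 genes with the largest decreases, 10 had a RefSeq promoter, 4 held the looser form and 0 the stricter one. Of the 12 with the largest increases, 10 had a promoter, 1 held the looser form (MMAA, not printed) and 0 the stricter one. Over all tested genes with a promoter, 18.9% held the looser form and 3.88% the stricter one.
NKD2, chr5:1008636-1008695, plus strand: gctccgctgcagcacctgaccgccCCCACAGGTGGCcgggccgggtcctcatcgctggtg
ZBTB39, chr12:57006613-57006672, minus strand: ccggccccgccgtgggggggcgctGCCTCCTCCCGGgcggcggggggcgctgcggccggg
ZBTB39, chr12:57006563-57006622, minus strand: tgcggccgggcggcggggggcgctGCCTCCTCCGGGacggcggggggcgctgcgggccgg
AGAP2-AS1, chr12:57726202-57726231, plus strand: ttctttccgCCCCTAGGGGGCacaagcggg
DMKN, chr19:35510530-35510589, minus strand: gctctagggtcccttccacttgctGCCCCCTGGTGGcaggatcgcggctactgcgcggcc
EHD2, chr19:47713288-47713347, plus strand: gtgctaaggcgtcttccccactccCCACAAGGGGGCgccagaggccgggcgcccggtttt
NR2C1, chr12:95073681-95073740, minus strand: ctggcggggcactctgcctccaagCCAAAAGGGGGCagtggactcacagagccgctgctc
MREG, chr2:216034138-216034197, minus strand: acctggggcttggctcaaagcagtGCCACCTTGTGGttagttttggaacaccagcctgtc

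HaloPROTAC3 changed the level of many transcripts in cells treated with DNMT1i, in both directions and to a similar extent. With an adjusted p under 0.05 and a size above 0.5 on the log2 scale, 670 genes were higher (5.28% of the genes tested) and 648 were lower (5.11%) with HaloPROTAC3 and DNMT1i than with DNMT1i alone. Most of these changes were modest, the median being 0.73 for higher and −0.77 for lower genes on that scale. Beyond a log2 fold change of 2 there were 34 higher and 44 lower genes. With no size limit, 1551 genes rose (12.2%) and 1286 fell (10.1%), and the median over all genes tested was −0.00. The 3 cultures with HaloPROTAC3 and the 3 without did not overlap for 1281 of the 1318 genes called in either direction (10.4% of the genes tested). Non-overlap alone was common, at 4670 of the genes tested (36.8%). Protein-coding genes gave 619 of the higher and 578 of the lower genes, and long noncoding RNAs gave 37 and 36.

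The largest decrease was in NKD2, an inhibitor of canonical Wnt signalling that binds Dishevelled. NKD2 (chr5:1008802-1038943, hg38) had 0.193, 0.604 and 0.313 CPM with HaloPROTAC3 and DNMT1i, against 14.5, 14.9 and 9.52 CPM with DNMT1i alone. The groups lay far apart, and 2.9% of the level was left (log2 fold change −5.11 ± 0.41 SE, adjusted p = 4.35e-11, n = 3 each, edgeR), although the low value rests on 6 counts over the group. CC2D2A, a protein of the transition zone of cilia, had 0.773, 1.41 and 0.469 CPM against 12, 12.8 and 16.5 CPM in DNMT1i alone. Its log2 fold change was −3.96 ± 0.30 (adjusted p = 1.04e-11). TMC7, of the transmembrane channel-like family, fell to 0.773, 1.61 and 0.626 CPM with HaloPROTAC3, against 9.14, 10.9 and 8.13 CPM in DNMT1i alone (−3.25 ± 0.33, adjusted p = 5.31e-09). FES, a cytoplasmic tyrosine kinase, stood at 0.193, 1.01 and 0.313 CPM with HaloPROTAC3 against 4.17, 5.72 and 5.11 CPM without it (−3.29 ± 0.44, adjusted p = 1.23e-06). In each of these genes the highest HaloPROTAC3 library was below the lowest DNMT1i-alone library, a condition of the rule that named them. Their HaloPROTAC3 libraries lay near the floor, so within this comparison they met the filter on low counts through DNMT1i alone. Their adjusted p-values are therefore given as a description, and no test is read from them.

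Of the other large decreases, DENND4B and ZBTB39 stood at higher levels. DENND4B, a guanine nucleotide exchange factor for Rab proteins, had 4.83, 4.23 and 5.16 CPM with HaloPROTAC3 and DNMT1i, against 37.8, 41.9 and 35.3 CPM with DNMT1i alone (log2 fold change −3.00 ± 0.17, adjusted p = 2.39e-14). ZBTB39, a BTB domain zinc finger protein whose upstream sequence is shown above with 2 matches, had 6.19, 6.04 and 7.04 CPM against 38.8, 35.8 and 30.7 CPM without HaloPROTAC3. This was a log2 fold change of −2.45 ± 0.15 (adjusted p = 3.02e-13), with 18.3% of the level left. GFI1, a zinc finger repressor best known from blood cells, fell to 0.58, 1.61 and 0.626 CPM with HaloPROTAC3, against 4.3, 6.86 and 4.88 CPM without it. C1QL4, a secreted C1q-like protein, had 2.32, 3.02 and 2.35 CPM with HaloPROTAC3 against 13.4, 14.7 and 13.2 CPM in DNMT1i alone, a log2 fold change of −2.43 ± 0.23. Groups of all 4 genes were fully separate, as the naming rule required. The 12 largest decreases also included SMCO4, a small membrane protein (−3.14), MBNL3, an RNA-binding protein of the muscleblind family (−2.95), REX1BD (−2.66) and the antisense RNA AGAP2-AS1 (−2.80 ± 0.38, adjusted p = 1.48e-06). AGAP2-AS1 overlaps its partner gene, and without a stated strand setting in the counting its value is uncertain.

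Of the increases, SLC2A9, which encodes a urate transporter, was the largest by the naming rule. SLC2A9 had 6.57, 4.84 and 5.47 CPM with HaloPROTAC3 and DNMT1i, against 0.538, 0.381 and 0.232 CPM with DNMT1i alone (log2 fold change 3.71 ± 0.45, adjusted p = 1.87e-07), with 7 counts behind the lower values. Within this comparison SLC2A9 met the filter on low counts through the HaloPROTAC3 libraries, so its adjusted p is given as a description. BEND6 (chr6:56955107-57027346), a BEN domain protein, had 34.8, 30.6 and 31.6 CPM against 4.3, 4.19 and 4.65 CPM without HaloPROTAC3, which is 7.39-fold (2.89 ± 0.15, adjusted p = 1.13e-14). The naming rule required separate groups, and for both genes the gap was several times their spread. MMAA, a mitochondrial protein that handles the cobalamin cofactor, rose to 21.3, 27.6 and 21.6 CPM with HaloPROTAC3, against 3.36, 4.57 and 3.25 CPM without it (2.65 ± 0.19, adjusted p = 2.68e-12). SRD5A3, a polyprenol reductase that makes the dolichol carrier of N-glycans, had 6.96, 8.46 and 9.54 CPM with HaloPROTAC3 against 1.88, 1.33 and 1.86 CPM without it (2.28 ± 0.27). In both, all 3 HaloPROTAC3 libraries were above all 3 others, again by the naming rule.

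CYP4F3 and CYP4F12, neighbouring cytochrome P450 genes that hydroxylate leukotrienes and fatty acids, rose together. CYP4F3 had 11.2, 11.3 and 11.3 CPM with HaloPROTAC3 and DNMT1i against 1.48, 1.72 and 1.39 CPM with DNMT1i alone (log2 fold change 2.86 ± 0.25, adjusted p = 4.16e-10). CYP4F12 had 4.64, 4.23 and 3.75 CPM against 0.672, 0.762 and 0.697 CPM without HaloPROTAC3 (2.53 ± 0.38). They are close paralogs, so reads may be split between them. Both were low in DNMT1i alone and met the filter on low counts through the HaloPROTAC3 libraries of this comparison, so no test is read from them. The antisense RNA PXN-AS1, which overlaps the paxillin gene, had 41.2, 32.8 and 37.8 CPM with HaloPROTAC3, against 6.05, 5.72 and 5.81 CPM in DNMT1i alone (2.66 ± 0.15), and is uncertain for the same reason as AGAP2-AS1. METTL25 (2.42), the divergent RNA MRPS30-DT (2.36), FDXACB1 (2.31) and the pseudogene PRSS30P completed the 12 largest increases.

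**Figure D1:**
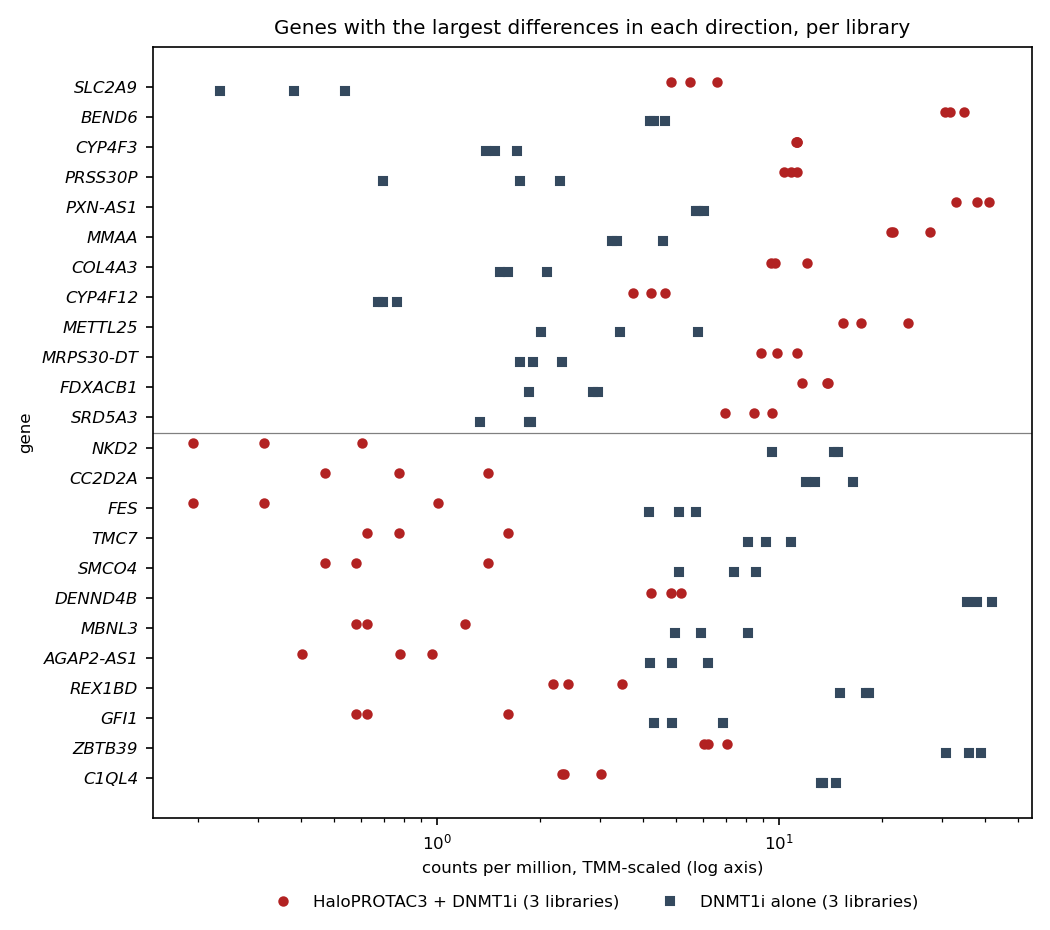
Level of the 12 genes with the largest increases (top) and the 12 with the largest decreases (bottom) in each of 6 libraries, in TMM-scaled CPM on a log axis, with HaloPROTAC3 and DNMT1i as circles and DNMT1i alone as squares. No gene overlaps between the groups, a condition of the rule that chose them, and NKD2 shows the widest gap, at 0.193 to 0.604 CPM with HaloPROTAC3 and DNMT1i against 9.52 to 14.9 CPM with DNMT1i alone.

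The smallest p-values belonged to genes with higher counts and tighter replicates, which are named here after their values were seen. SEC24D, a coat protein of the COPII vesicles that leave the endoplasmic reticulum, had 151, 154 and 155 CPM with HaloPROTAC3 and DNMT1i, against 44.6, 47.3 and 38.8 CPM with DNMT1i alone (log2 fold change 1.81 ± 0.09, adjusted p = 3.41e-15). DMKN, the secreted epithelial protein dermokine, had 19.9, 18.9 and 19.5 CPM with HaloPROTAC3 against 75.4, 77.2 and 86.6 CPM without it (−2.03 ± 0.10, adjusted p = 4.71e-15). For both genes the range within each group was far smaller than the gap between the groups. EEF1A2, a translation elongation factor, fell to 173, 155 and 168 CPM with HaloPROTAC3, against 484, 464 and 482 CPM in DNMT1i alone. CYP24A1, the enzyme that inactivates vitamin D hormone, had 146, 146 and 140 CPM with HaloPROTAC3 against 340, 334 and 351 CPM without it.

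Of 20 tested genes of CTCF and cohesin, 2 rose, 1 fell and 17 did not pass the test (median −0.01 on the log2 scale), shares near or below the 12.2% of all genes tested that rose and the 10.1% that fell. CTCF itself had 203, 194 and 211 CPM with HaloPROTAC3 and DNMT1i, against 128, 126 and 127 CPM with DNMT1i alone, so its RNA rose while the treatment targets its protein (log2 fold change 0.67 ± 0.07, adjusted p = 1.1e-08). STAG1, an alternative subunit of cohesin, had 208, 235 and 255 CPM against 104, 106 and 92.5 CPM without HaloPROTAC3 (1.20 ± 0.08, adjusted p = 2.92e-12). Neither gene overlapped between the groups. The other alternative subunit, STAG2, gave 0.19 and the core subunit RAD21 0.00 on the log2 scale, and neither passed the test. CDCA5, the cohesin protector sororin, had 64, 66.1 and 61.6 CPM with HaloPROTAC3 and 82.9, 86.1 and 73.4 CPM without it (−0.35 ± 0.09, adjusted p = 0.00588). CTCFL, a germline paralog of CTCF, had 2.32, 2.82 and 2.19 CPM with HaloPROTAC3 against 2.82, 4.57 and 3.48 CPM in DNMT1i alone, and the difference did not pass the test (−0.55 ± 0.33, adjusted p = 0.254). In DMSO, CTCFL had 1 count over the 3 libraries with HaloPROTAC3 and 0 over the 3 without.

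Of the ligase that the degrader recruits, 7 genes were tested: 1 rose, 2 fell and the median was 0.02, beside 12.2% and 10.1% of all genes tested. VHL, the substrate receptor, had 55.7, 64.7 and 55.7 CPM with HaloPROTAC3 against 67.7, 74.7 and 66.9 CPM without it (log2 fold change −0.25 ± 0.09, adjusted p = 0.0393). The other decrease was in UBE2M (−0.44), which charges cullins with NEDD8, and the increase was in the adaptor ELOB (0.26). The VHL and ELOB calls were lost under some of the other settings. Because VHL also controls the hypoxia factor HIF1A, a list of hypoxia and glycolysis genes was counted. Of 35 tested, 12 rose and 5 fell (ENO2, PFKFB3, PFKP, SLC2A1 and VHL), with a median of 0.10. ADM, the vessel-relaxing peptide adrenomedullin and a classical target of hypoxia, had 47.9, 42.1 and 46.8 CPM with HaloPROTAC3 against 19.6, 19.4 and 17 CPM without it (1.28 ± 0.12, adjusted p = 8.3e-10). VEGFA, another such target, gave −0.20 and did not pass. Leaving out replicate 1 or replicate 2 of DNMT1i alone left 6 that rose, and leaving out replicate 3 of HaloPROTAC3 with DNMT1i left 7.

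The genes of DNA methylation gave 1 increase and 2 decreases among 16 tested, near the 12.2% and 10.1% of all genes tested. UHRF1, which brings DNMT1 to newly replicated DNA, had 109, 95.3 and 125 CPM with HaloPROTAC3 and DNMT1i, against 169, 169 and 154 CPM with DNMT1i alone (log2 fold change −0.58 ± 0.11, adjusted p = 0.000211). In DMSO its log2 fold change was −0.08, and the difference between the HaloPROTAC3 effects did not pass (adjusted p = 0.133). ZBTB33, the methyl-CpG binding protein Kaiso, rose to 77.5, 87.8 and 81.8 CPM with HaloPROTAC3, against 44.8, 45 and 49.5 CPM without it (0.83 ± 0.09). DNMT1, the target of the inhibitor, had 356, 320 and 375 CPM with HaloPROTAC3 and 404, 394 and 404 CPM without it. That small decrease passed narrowly (−0.19 ± 0.07, adjusted p = 0.042) and was lost under 7 of 13 other settings.

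Genes of the endoplasmic reticulum were the most uniform group. Of 21 tested genes of the unfolded protein response, chaperones and folding enzymes that cells make when proteins accumulate in that compartment, 16 rose and 0 fell, with a median log2 fold change of 0.55. By any other tool or setting the number that fell was at most 1, and 15 or 16 rose when single libraries were left out. DNAJB9, a co-chaperone of BiP, had 36.9, 46.9 and 39.7 CPM with HaloPROTAC3 and DNMT1i against 10.9, 14.3 and 12.5 CPM with DNMT1i alone (1.72 ± 0.13, adjusted p = 1.88e-11). DNAJC3, which restrains the stress kinase PERK, had 183, 206 and 222 CPM against 108, 110 and 105 CPM without HaloPROTAC3. PDIA3, a disulfide isomerase, had 771, 776 and 879 CPM with HaloPROTAC3 against 464, 472 and 485 CPM without it. The groups were separate for each. XBP1, a transcription factor of the response named after its value was seen, averaged 108 ± 4.87 CPM with HaloPROTAC3 and 58.3 ± 3.85 CPM without it (SD, n = 3 each; log2 fold change 0.89). In DMSO 14 of the same 21 genes rose and 0 fell, with a median of 0.35, beside 10.1% of all genes that rose and 7.28% that fell there. Of 32 tested targets of ATF4 in the integrated stress response, 10 fell, 1 rose (WARS1), 21 did not pass and the median was −0.17. Beside both lists, 12.2% of all genes tested rose and 10.1% fell under DNMT1i. SLC7A5, a transporter of large neutral amino acids, had 472, 423 and 373 CPM with HaloPROTAC3 and DNMT1i, against 754, 738 and 643 CPM with DNMT1i alone (−0.75 ± 0.09, adjusted p = 7.29e-08). Its partner SLC3A2 (−0.55) and MTHFD2, of mitochondrial folate metabolism (−0.52), fell too. Without replicate 1 of DNMT1i alone the number that fell was 5, and with no filter on low counts it was 6.

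Cholesterol synthesis shared the upward direction. Of 25 genes tested, 12 rose and 0 fell (median 0.29), and in DMSO the counts were also 12 and 0 (median 0.26). Over all genes tested 12.2% rose and 10.1% fell under DNMT1i, and 10.1% and 7.28% in DMSO. SC5D, an enzyme late in the pathway, had 78.1, 88.8 and 82.7 CPM with HaloPROTAC3 and DNMT1i against 42.1, 40.2 and 43.9 CPM with DNMT1i alone (log2 fold change 0.99 ± 0.09, adjusted p = 9.22e-10). HMGCS1, an early enzyme, had 90.5, 101 and 96 CPM with HaloPROTAC3 against 65.7, 62.5 and 62.3 CPM without it (0.59). INSIG1, which holds the sterol sensor SCAP in the endoplasmic reticulum, gave 0.75.

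Of 34 S phase genes, 0 rose and 11 fell, with a median of −0.14, and 7 fell in DMSO. Beside this and the lists that follow, 12.2% of all genes tested rose and 10.1% fell under DNMT1i, and 7.28% fell in DMSO. CDT1, which loads the replicative helicase, had 83.9, 77.4 and 74.6 CPM with HaloPROTAC3 and DNMT1i, against 113, 108 and 104 CPM with DNMT1i alone (log2 fold change −0.47 ± 0.09, adjusted p = 0.000317). MCM7, a subunit of that helicase, had 330, 322 and 331 CPM with HaloPROTAC3 against 443, 412 and 412 CPM without it. In G2/M, 4 of 29 genes rose and 3 fell, near the shares over all genes. MYC did not differ, with 428, 392 and 387 CPM against 428, 397 and 388 CPM without HaloPROTAC3 and overlapping groups (−0.01 ± 0.07, adjusted p = 0.948). Of 33 MYC target genes, 6 fell and 1 rose (LDHA), with a median of −0.03. The immediate-early genes that follow growth factor signals gave 11 decreases and 3 increases (DUSP6, SPRED1 and NR4A2) among 36. EGR1, a zinc finger transcription factor of this class, had 53.7, 40.1 and 40.7 CPM with HaloPROTAC3 against 75.7, 77.8 and 77.8 CPM without it (−0.78 ± 0.11, adjusted p = 2.36e-06). The number of decreases was 6 without replicate 3 of HaloPROTAC3 with DNMT1i and 7 without replicate 1 of DNMT1i alone, and in that last case the median was −0.01.

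Many ribosomal protein and mitochondrial genes rose with HaloPROTAC3 under DNMT1i. Of 79 cytosolic ribosomal protein genes, 50 rose and 1 fell (RPL36), with a small median of 0.24, while in DMSO 2 rose, 3 fell and the median was 0.00. Over all genes tested 12.2% rose and 10.1% fell under DNMT1i, and 10.1% and 7.28% in DMSO. The interaction called 5 of the 79 as higher and 0 as lower, with 0 to 10 higher when single libraries were left out. RPS21 had 339, 269 and 285 CPM with HaloPROTAC3 and DNMT1i, against 197, 221 and 224 CPM with DNMT1i alone (log2 fold change 0.48 ± 0.08, adjusted p = 6.01e-05). The number of ribosomal protein genes that rose under DNMT1i depended on single libraries. It was 32 without replicate 1 and 31 without replicate 3 of HaloPROTAC3 with DNMT1i, and 23 without replicate 1 and 24 without replicate 2 of DNMT1i alone. Of 13 protein-coding genes of the mitochondrial genome, 9 rose (median 0.33), 5 without replicate 2 of DNMT1i alone. In DMSO 3 of the 13 rose and 0 fell (median 0.20). The interaction called 0 as higher and 1 as lower. Mitochondrial transcripts took 15% to 16.9% of the counts with HaloPROTAC3 and DNMT1i, against 12.5% to 13.8% with DNMT1i alone, and their part in the other results was not tested.

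MT-ND6 was the 1 mitochondrial gene that fell. It lies on the opposite strand to the other mitochondrial protein genes. It had 72.7, 110 and 93.2 CPM with HaloPROTAC3 and DNMT1i against 254, 289 and 258 CPM with DNMT1i alone (log2 fold change −1.54 ± 0.17, adjusted p = 2.11e-08), and it overlaps transcription of the other strand, so its value depends on the strand setting.

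Of 18 Wnt target genes tested, 7 fell and 3 rose (CD44, TCF7L2 and BMP4), with a median of −0.18. Beside this list and those below, 12.2% of all genes tested rose and 10.1% fell. Besides NKD2, DKK1, a secreted Wnt inhibitor, had 180, 183 and 171 CPM with HaloPROTAC3 and DNMT1i, against 320, 295 and 307 CPM with DNMT1i alone (log2 fold change −0.79 ± 0.07, adjusted p = 1.34e-09). AXIN2, a target in many tissues, gave 0.07 and did not pass. BMP4, a secreted morphogen, had 176, 158 and 191 CPM with HaloPROTAC3 against 110, 99.3 and 108 CPM without it (0.73 ± 0.08). TGFB1, the cytokine TGF-beta 1, was lower at 21.8, 23.2 and 21.3 CPM with HaloPROTAC3, against 59.5, 63.6 and 56.2 CPM without it (−1.44 ± 0.11, adjusted p = 1.05e-11). Of 26 TGF-beta and mesenchymal genes, 2 rose, 2 fell and the median was 0.02. Among epithelial genes 9 of 28 rose and 3 fell (CDX2, ELF3 and CLDN7). CDH1, the adhesion protein E-cadherin, had 118, 119 and 114 CPM with HaloPROTAC3 and DNMT1i against 73.5, 67.3 and 79.7 CPM with DNMT1i alone (0.67 ± 0.09). DSC2, a desmosomal cadherin, gave 0.92. Without replicate 1 of DNMT1i alone 0 of the epithelial genes fell and 7 rose, and 1 fell without replicate 2 of either group or without replicate 3 of HaloPROTAC3 with DNMT1i. COL1A1, the 1 fibroblast marker tested, had 28.4, 29.6 and 22.7 CPM with HaloPROTAC3 against 19.1, 16 and 15.3 CPM without it (0.65 ± 0.14), while 2 other fibroblast markers were at 0 in all libraries.

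HOX genes are classical examples of gene clusters whose borders CTCF helps to set, and clustered protocadherins are expressed from CTCF-bound promoters. Of 39 HOX genes 22 were tested, of which 6 fell and 1 rose, with a median of −0.19. Over all genes tested 10.1% fell and 12.2% rose. In DMSO 1 of the 22 fell and 0 rose (median −0.01), beside 7.28% and 10.1% of all genes there. The interaction called 0 of the 22. HOXB8 had 25.7, 25.8 and 25.6 CPM with HaloPROTAC3 and DNMT1i, against 43.1, 46.9 and 43.4 CPM with DNMT1i alone (log2 fold change −0.79 ± 0.11, adjusted p = 3.73e-06). HOXA11, the 1 that rose, had 11.2, 12.7 and 11.6 CPM with HaloPROTAC3 against 8.06, 5.72 and 6.04 CPM without it (0.80 ± 0.20, adjusted p = 0.00386). The neighbouring genes HOXA3 (−1.05), HOXA5 (−0.71) and HOXA6 (−1.60) fell together at low levels, with means of 2.94, 4.33 and 0.623 CPM with HaloPROTAC3 and 5.91, 7.04 and 2.03 CPM without it. Leaving out single libraries brought the number of HOX genes that fell to 2 without replicate 2 of HaloPROTAC3 with DNMT1i, 1 without replicate 1 of DNMT1i alone and 3 without its replicate 2, and DESeq2 gave 3. Of 53 clustered protocadherins only PCDHGA10 and PCDHAC2 were expressed highly enough to be tested. PCDHGA10 had 2.32, 1.41 and 2.35 CPM with HaloPROTAC3 against 8.2, 6.67 and 5.81 CPM without it (−1.77 ± 0.27, adjusted p = 1.13e-05), although genes of that cluster share their last exons and counting can split them.

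Imprinted genes, where CTCF reads parental methylation at loci such as H19 and IGF2, gave 6 increases and 2 decreases (MEST and SGCE) among 22, beside 12.2% and 10.1% of all genes tested. H19 gave 0.02 and IGF2 −0.07 on the log2 scale, with no call. PLAGL1, a zinc finger protein made from the paternal copy, had 80.4, 70.1 and 72.4 CPM with HaloPROTAC3 and DNMT1i against 46.9, 38.7 and 45.5 CPM with DNMT1i alone (0.76 ± 0.10, adjusted p = 3.34e-07). MEST had 28.2, 33.6 and 25.5 CPM with HaloPROTAC3, against 47.2, 43.6 and 51.3 CPM without it (−0.71 ± 0.11).

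**Figure D2:**
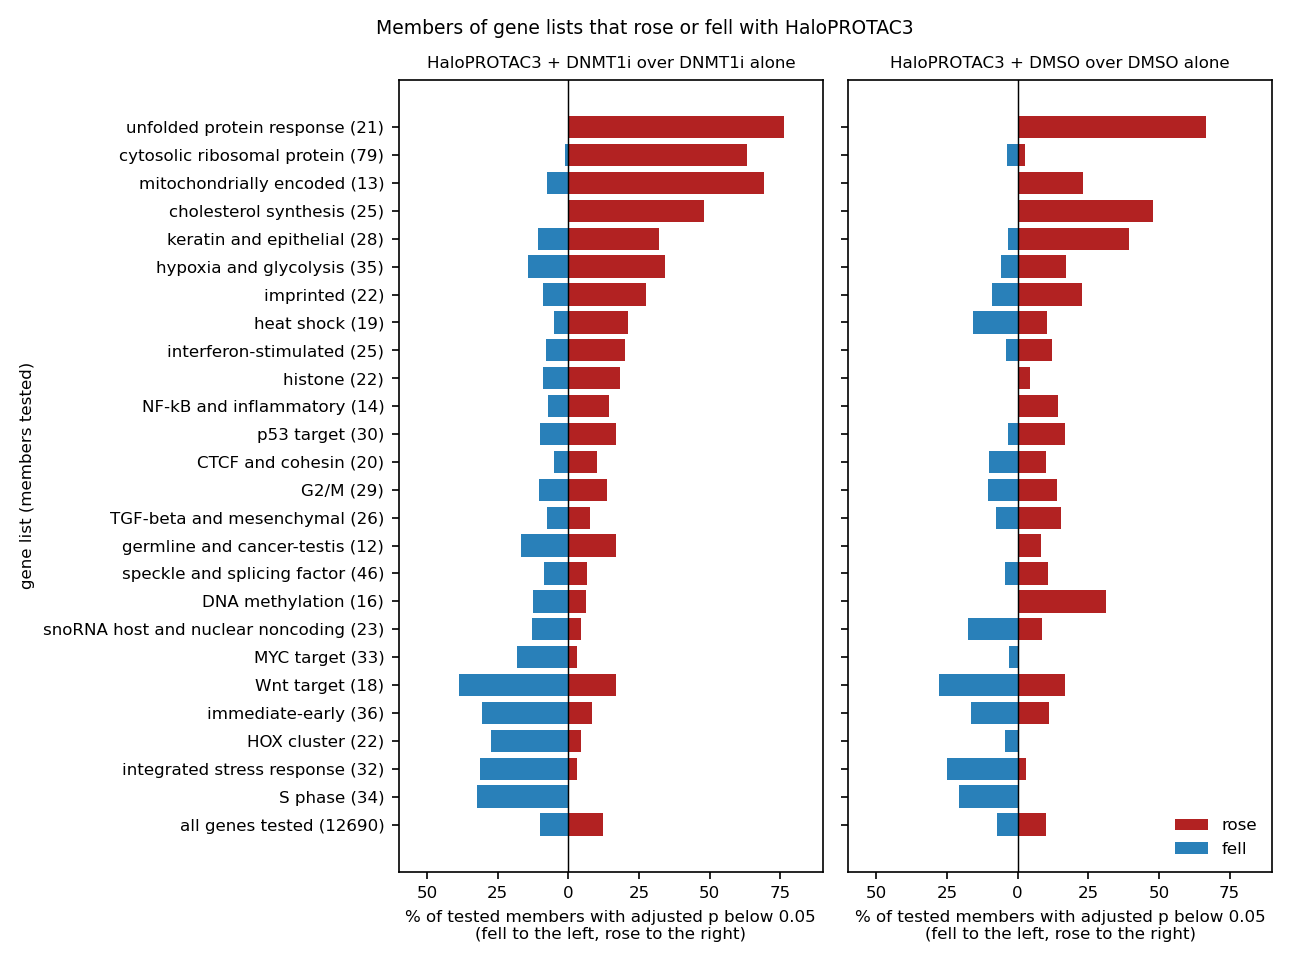
Share of the tested members of each gene list that rose (right) or fell (left) at an adjusted p below 0.05, for HaloPROTAC3 with DNMT1i over DNMT1i alone (left panel) and HaloPROTAC3 with DMSO over DMSO alone (right panel), with the number tested in parentheses. The unfolded protein response leads in both panels, at 16 of 21 and 14 of 21 genes that rose. Ribosomal protein genes stand out in the left panel, at 50 of 79 against 2 of 79. For these the interaction, not shown, called 5 of 79.

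The HaloPROTAC3 effect under DNMT1i was then set beside that in DMSO. In DMSO 592 genes were higher (4.67%) and 449 were lower (3.54%) with HaloPROTAC3. Of the genes called under DNMT1i, 1247 of 1318 had the same sign in DMSO. Those higher in both conditions numbered 357, which is 53.3% of the DNMT1i list and 60.3% of the DMSO list, and those lower in both numbered 266, which is 41.0% and 59.2%. KMT2D and SYNE2 were called in opposite directions, but their DMSO groups overlapped. KMT2D had 110, 187 and 174 CPM with HaloPROTAC3 and DMSO, against 88.6, 98.1 and 133 CPM with DMSO alone. SYNE2 had 47.6, 106 and 77.6 CPM against 46.4, 49.4 and 57.4 CPM. Their annotated exons were long, at 25436 and 32359 bases, beside a median of 5303 bases over all genes tested. Over the 12690 genes the log2 fold changes of the 2 comparisons correlated with Pearson's r = 0.70 and Spearman's rho = 0.55, as a description across genes, which are not independent. NKD2, CC2D2A, BEND6 and MMAA, among the largest changes above, had log2 fold changes of −3.90, −3.85, 2.88 and 2.55 in DMSO.

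**Figure D3:**
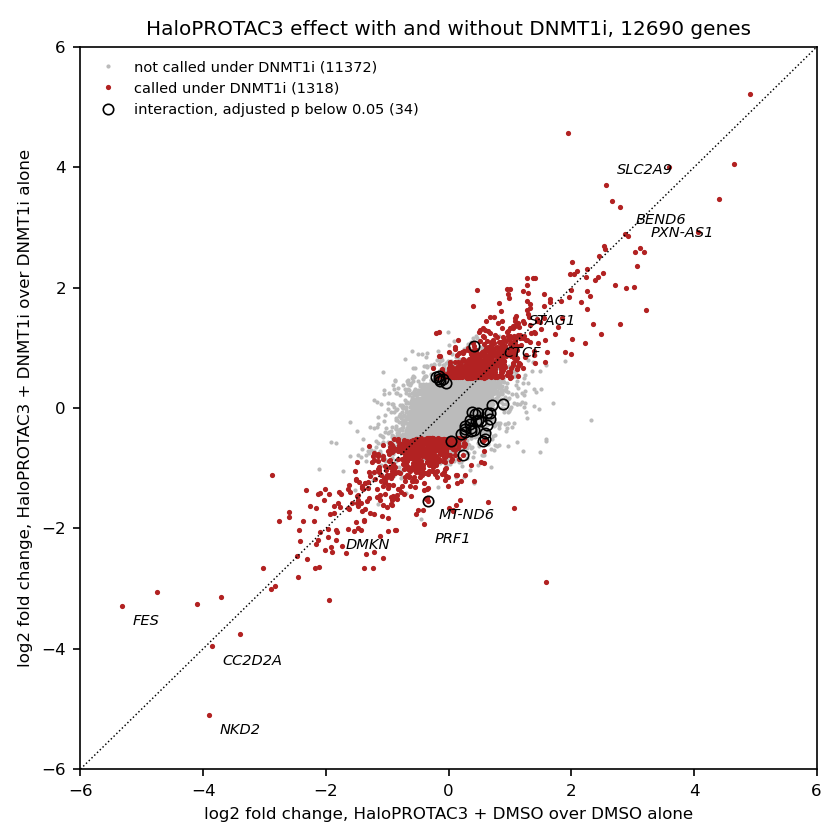
Log2 fold change of each of 12690 genes for HaloPROTAC3 with DNMT1i over DNMT1i alone (vertical) against HaloPROTAC3 with DMSO over DMSO alone (horizontal), with the 1318 genes called under DNMT1i in red, the 34 with an adjusted p below 0.05 for the interaction circled and equality as a dotted line. Most called genes lie along the line, and the circled genes include MT-ND6 at −1.54 under DNMT1i and −0.33 in DMSO, and KMT2D at −0.55 and 0.55. The DMSO groups overlap for both genes.

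The test of the difference between the 2 HaloPROTAC3 effects, an interaction term over the 12 libraries, called few genes. At an adjusted p below 0.05, 7 genes had a higher effect under DNMT1i (0.0552%) and 27 a lower one (0.213%). Of the 693 genes called under DNMT1i and not in DMSO, 6 were among them. MKI67, the proliferation marker Ki-67, had 888, 825 and 974 CPM with HaloPROTAC3 and DNMT1i, against 1083, 1249 and 1127 CPM with DNMT1i alone. In DMSO it had 1122, 1521 and 1377 CPM with HaloPROTAC3, against 1037, 926 and 1064 CPM without it. The direction was thus opposite between the conditions (interaction −0.77 ± 0.12 on the log2 scale, adjusted p = 0.00957). For MT-ND6 the DMSO values were 174, 151 and 200 CPM with HaloPROTAC3 and 137, 209 and 311 CPM without it, which overlap, and the interaction was −1.21 ± 0.23 (adjusted p = 0.0157). RPS29, RPS13 and RPS21 gave 0.73, 0.58 and 0.63.

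The genes called by the interaction differed from all genes tested in median exon length, a feature that the test did not use. Length here sums all annotated exons of a gene and is not that of 1 transcript. The median was 13998 bases for the 27 genes with a lower effect and 2115 bases for the 7 with a higher one. Over all genes tested it was 5303 bases. Single genes departed from this. ERLEC1 at 16419 and RPS29 at 9840 bases had a higher effect, and MT-ND6 at 525 bases a lower one. The log2 fold change correlated with exon length with Spearman's rho = 0.18 for HaloPROTAC3 in DMSO and 0.048 under DNMT1i, across genes. Leaving out 1 library at a time gave 0 to 72 genes with a higher effect and 0 to 166 with a lower one. No gene was called without replicate 2 of DNMT1i alone, without replicate 3 of HaloPROTAC3 with DMSO or without replicate 2 of DMSO alone, and 1 was called without replicate 1 of DNMT1i alone. The 72 and 166 genes came without replicate 3 of DMSO alone. The unadjusted p was below 0.05 for 1788 genes, and DESeq2 called 60 and 83.

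**Figure D4:**
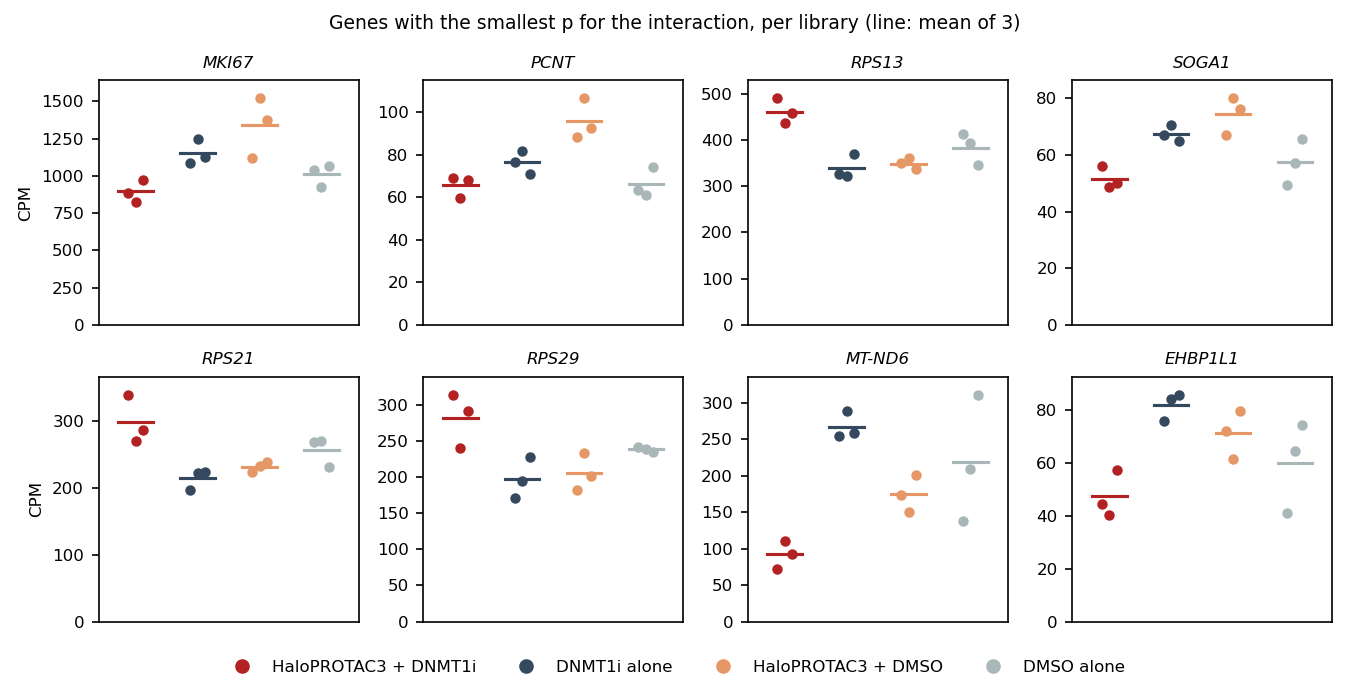
Level in each of the 12 HT-CTCF libraries, in TMM-scaled CPM, of the 8 genes with the smallest p for the difference between the HaloPROTAC3 effects, with the mean of 3 as a line and each axis starting at 0. In MT-ND6 the libraries with HaloPROTAC3 and DNMT1i lie at 72.7 to 110 CPM against 254 to 289 CPM with DNMT1i alone, while the DMSO groups overlap.

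Genes that DNMT1i activates were examined apart, using a selection made in other libraries. In wild-type HCT116 cells treated for 3 days, 1633 of 15885 genes tested rose beyond a log2 fold change of 2 with DNMT1i against DMSO. Of these, 139 were expressed highly enough in the HT-CTCF libraries to be tested, and a gene can pass that filter through the group where it is high. Under DNMT1i, HaloPROTAC3 was followed by 17 increases and 18 decreases among the 139, beside 12.2% and 10.1% of all genes tested (median −0.14 on the log2 scale). In DMSO there were 15 increases and 7 decreases, with a median of 0.07. DESeq2 gave 10 decreases under DNMT1i. The interaction called 1 of the 139, and the DNMT1i effect itself gave 49 increases in cells with HaloPROTAC3 (2.86% of all genes tested) and 52 in cells without it (1.98%).

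PRF1, the pore-forming protein perforin, was the clearest decrease in this set and was chosen after its value was seen. PRF1 had 5.99, 5.24 and 5.94 CPM with HaloPROTAC3 and DNMT1i, against 23.3, 20 and 22.3 CPM with DNMT1i alone (log2 fold change −1.93 ± 0.18, adjusted p = 8.02e-10). In DMSO it stood at 2.25, 2.04 and 1.23 CPM with HaloPROTAC3 and at 2.94, 2.22 and 2.41 CPM without it. The libraries with both agents thus lay between DMSO and DNMT1i alone, and the interaction missed the threshold (−1.53 ± 0.36, adjusted p = 0.0548). DHRS2, a mitochondrial dehydrogenase chosen likewise, went the other way, with 90.3, 92.1 and 110 CPM with HaloPROTAC3 and DNMT1i against 62.5, 58.3 and 53 CPM with DNMT1i alone (0.75 ± 0.10), and 1.41 in DMSO.

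The germline and cancer-testis genes, which methylation silences in most adult cells, gave 2 increases and 2 decreases among 12 tested of 63, beside 12.2% and 10.1% of all genes tested. MAGEB1, a cancer-testis antigen, had 0.193, 0.604 and 0.313 CPM with HaloPROTAC3 and DNMT1i, against 3.23, 2.1 and 3.02 CPM with DNMT1i alone, which is 6 counts against 48. TDRD12, of the piRNA pathway that guards the germline, had 0.58, 0.201 and 0.626 CPM with HaloPROTAC3, against 3.23, 2.86 and 2.09 CPM without it, which is 8 counts against 48. In DMSO neither had more than 3 counts in a group, so both, which are the 2 decreases of the list, passed the filter on low counts through the group where they are high, and no test is read from them. TEX14, of the bridges between germ cells, rose to 13.9, 10.9 and 12.4 CPM with HaloPROTAC3 and DNMT1i, against 4.97, 3.24 and 6.04 CPM with DNMT1i alone (1.39 ± 0.23, adjusted p = 2.93e-05). Of 25 interferon-stimulated genes, which DNA demethylation can induce, 5 rose and 2 fell (IFITM2 and OAS3), with a median of 0.13, beside 12.2% and 10.1% of all genes tested. IFIT1, an antiviral RNA-binding protein, had 12.4, 11.5 and 14.5 CPM with HaloPROTAC3 and 4.97, 5.91 and 4.41 CPM without it (1.33 ± 0.20).

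The letters of the CTCF core were then counted in windows from 250 bases before to 50 bases after each RefSeq start site, for the 9689 tested genes with a promoter in the table. The stricter form stood in 4.12% of windows of genes lower under DNMT1i with HaloPROTAC3 (30 of 729) and in 2.45% of windows of higher genes (19 of 775), against 2.76% of windows of genes not called and 2.41% of all 35116 windows in the table. For the looser form the shares were 18.4% for lower, 12.8% for higher and 14% for uncalled genes, and 10.6% over the table. The share among lower genes was larger for larger decreases, at 24.3% beyond a log2 fold change of 1 and 30.0% beyond 2 (50 windows). It was also larger in genes that fell in both conditions. Windows of genes lower in both held the looser form in 25.7% and the stricter form in 6.59%, windows of genes lower under DNMT1i and not called as lower in DMSO held them in 12.2% and 2.03%, and windows of genes lower in DMSO and not under DNMT1i held them in 18.6% and 3.83%. The genes lower in both and those lower under DNMT1i and not in DMSO also differed in size of effect, with median log2 fold changes of −1.02 and −0.68. GC content, on which such letters depend, was 66.5% in windows of lower genes, 62.3% for higher genes and 64.0% for genes not called. Windows of genes lower in both had 65.4% GC, and those of genes lower under DNMT1i and not in DMSO had 67.4%. For decreases beyond 1 and beyond 2 it was 65.2% and 64.2%. The part of GC content in the shares was not tested. In lower genes the looser form was most frequent between 100 and 50 bases before the start, at 6.17% of windows. That stretch was also the most frequent for genes not called, at 3.11%, so the position is not particular to lower genes. Of the 12 genes with the largest decreases 10 had a promoter in the table and 4 a match to the looser form before the start, and of the 12 with the largest increases 10 had a promoter and 1 a match, MMAA. Counted by gene and over the whole window, the looser form stood in 18.6% of genes not called and 18.9% of all tested genes.

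**Figure D5:**
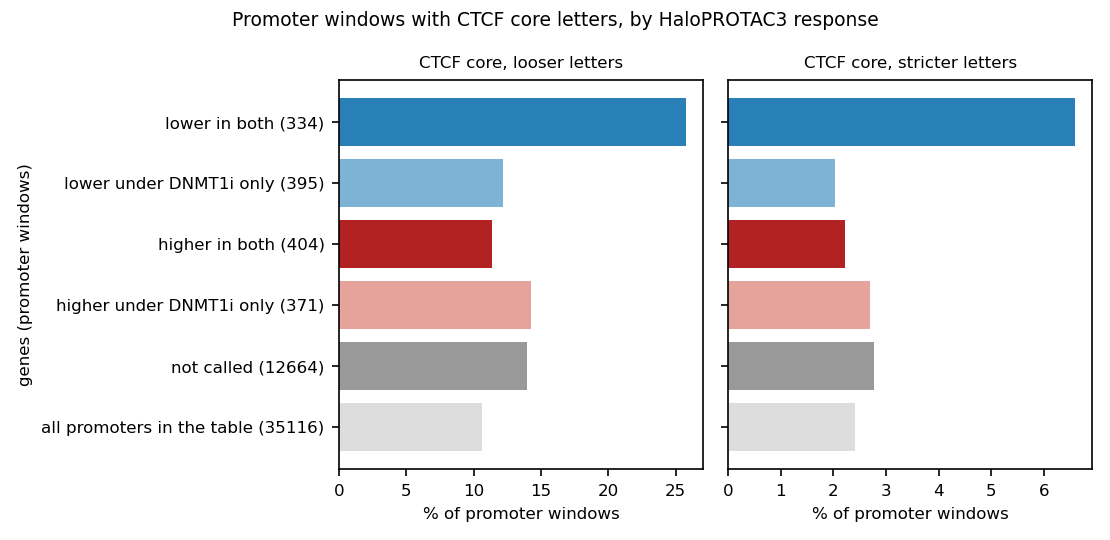
Share of promoter windows that hold the looser (left panel) or stricter (right panel) letters of the CTCF core, for genes lower or higher with HaloPROTAC3 in both conditions or under DNMT1i only, genes not called and all promoters in the table, with the number of windows in parentheses. The bar for genes lower in both is the longest in each panel, at 25.7% and 6.59%, against 14% and 2.76% for genes not called.

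The promoters printed above belong to genes that fell at different levels of expression. EHD2, a membrane-bending protein of caveolae with a match 104 bases before its start, had 42.5, 36.9 and 41.4 CPM with HaloPROTAC3 and DNMT1i, against 109, 117 and 99.2 CPM with DNMT1i alone (log2 fold change −1.43 ± 0.09, adjusted p = 8.1e-13). NR2C1, an orphan nuclear receptor with a match 92 bases before its start, had 11.8, 11.3 and 10.2 CPM against 31.2, 28.8 and 31.6 CPM without HaloPROTAC3 (−1.47 ± 0.14). MREG, a protein of melanosome transport with a match 71 bases before its start, had 6.38, 8.66 and 6.1 CPM with HaloPROTAC3 against 16, 14.5 and 15.3 CPM without it (−1.13 ± 0.17). DMKN, described above, has its match 89 bases before a RefSeq start that lies inside the annotated gene (chr19:35497220-35513658), while its counts cover the whole gene. All 4 fell in DMSO too, at log2 fold changes of −1.04 for EHD2, −1.50 for NR2C1, −0.95 for MREG and −1.84 for DMKN. A match is a description of the letters and not a measured binding site.

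Changed genes also lay near each other more often than the shares over all genes. Among 1566 tested genes that started within 100 kb of a lower gene, 125 were lower themselves (7.98%, against 5.11% of all genes), and among 1265 that started within 100 kb of a higher gene, 95 were higher (7.51%, against 5.28%). Within 50 kb the shares were 9.72% and 9.86%, and within 500 kb 5.94% and 5.79%. Neighbours of lower genes were higher in 4.02% and neighbours of higher genes were lower in 5.85%. Read-through, shared promoters and reads counted for overlapping genes were not separated here. Uninterrupted runs of 3 tested genes with the same call numbered 8 for higher and 5 for lower genes.

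The collagen pair COL4A3 and COL4A4, whose chains join in the basement membrane of kidney and other tissues, starts from 1 shared promoter region in opposite directions. COL4A3 (chr2:227164624-227314792) had 9.47, 12.1 and 9.7 CPM with HaloPROTAC3 and DNMT1i, against 1.61, 1.52 and 2.09 CPM with DNMT1i alone (log2 fold change 2.59 ± 0.25, adjusted p = 2.42e-09). COL4A4 (chr2:227002714-227164453) had 30.5, 29.4 and 33.5 CPM against 6.18, 7.43 and 6.27 CPM without HaloPROTAC3 (2.24 ± 0.16, adjusted p = 2.41e-12). Both were separate between the groups, which the naming rule required for COL4A3. The next gene was MFF, a receptor for mitochondrial fission. MFF had 76.2, 78.6 and 85.1 CPM with HaloPROTAC3 against 46.5, 46.1 and 50.2 CPM without it (0.75 ± 0.09). On chromosome 4 the EGF receptor ligands AREG (0.62) and BTC (1.61) formed a run with PARM1, a mucin-like membrane protein. PARM1 had 60.7, 59 and 62.1 CPM with HaloPROTAC3 and DNMT1i, against 16, 15.6 and 16.7 CPM with DNMT1i alone (1.91 ± 0.11, adjusted p = 5.4e-14).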

How the data were processed

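The 12 HT-CTCF libraries were poly(A)-selected and carried molecular identifiers. As the methods and the processing notes state, the authors removed duplicates with UMI-tools 1.1.1, trimmed with cutadapt 2.7, aligned with STAR 2.6.0 to hg38, and deposited raw HTSeq counts per gene for each library. No source used here gives the strand setting, so antisense and overlapping genes are uncertain. The authors' tables of their own comparisons (fold changes and p-values) were not used. Reads not placed in a gene (17.1% to 21.4%) stayed out of library sizes. Genes were named by GENCODE 44 (60463 of 60664 matched).

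Counts were tested in edgeR 4.0.16 (R 4.3.3) with TMM scaling, filterByExpr and a quasi-likelihood fit over 12 libraries in 4 groups; all 12 inform the spread. Calls required an adjusted p below 0.05 and, for counts of genes higher or lower, a log2 fold change beyond 0.5. List members and the interaction had no size limit. SE was obtained as the absolute fold change (log2) divided by the root of the F statistic. Wild-type libraries were fitted alone. The scripts were tested on simulated data. Alternatives were DESeq2 1.42.0, other scaling, no filter, thinning to the smallest library and each comparison's own 6 libraries. Further ones were a replicate block, other thresholds and leaving out each library. A correction for exon length was added after seeing the data.

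Cultures are described as separate, and no 2 libraries of a group agreed within sampling noise (chi-square per degree of freedom 1.79 to 6.28). Members, lists and the naming rule were chosen with earlier results of these data known. The rule took, among called, named genes averaging at least 1 in log2 CPM with non-overlapping groups, the 12 largest changes each way, up to 3 members per list, CTCF, CTCFL, DNMT1 and MYC, and the 8 smallest interaction p-values. Other genes named were chosen after their values were seen. Of the 24 genes, 20 had a RefSeq promoter (GRCh38.p14).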

Additional observations from a re-analysis of the deposited data

Results flagged for a closer look

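The HaloPROTAC3 effect differed between DNMT1i and DMSO for 34 genes by the interaction test in edgeR (adjusted p below 0.05), as described in the report. Values are the log2 fold change under DNMT1i minus that in DMSO. They were −0.77 for MKI67, −0.75 for the centrosome protein PCNT, −0.76 for SOGA1, −1.21 for MT-ND6 and −1.01 for EHBP1L1. The ribosomal protein genes RPS13, RPS21 and RPS29 gave 0.58, 0.63 and 0.73. Called genes differed in median exon length from all genes tested, with exceptions, as the report gives. The median HaloPROTAC3 effect under DNMT1i was 0.01 in the decile of genes with the longest exons and −0.06 in the decile with the shortest, and in DMSO it was 0.10 and −0.10. A correction for exon length, added after seeing the data, left 5 genes with a higher and 22 with a lower effect. Whether length accounts for these calls was not tested further.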

How the results depend on the processing

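The counts for the HaloPROTAC3 effect stayed within 1.5 times of the values above under every tool, scaling and left-out library tried, and moved further only with a stricter size limit. Under DNMT1i, DESeq2 gave 491 lower genes, RLE scaling 667 and 655, no filter 659 and 661, thinning 624 and 595, and the 6 libraries alone 646 and 629. A log2 fold change beyond 1 left 168 and 218 genes under DNMT1i and 172 and 152 in DMSO. Leaving out 1 library gave 596 to 665 higher and 547 to 671 lower genes under DNMT1i, and 532 to 626 and 382 to 425 in DMSO. The interaction was not stable: DESeq2 gave 60 and 83 genes, no filter 24 and 141, thinning 4 with a higher effect, and leaving out 1 library 0 to 72 and 0 to 166. For genes raised in wild-type cells, a threshold of 1 gave 72 increases and 76 decreases under DNMT1i and 70 and 34 in DMSO, and a threshold of 3 gave 8, 11, 7 and 2. The looser CTCF letters gave 18.4% of windows for lower, 12.8% for higher and 14.1% for all tested genes.

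Replicate numbers were not used to pair the samples in the main fit. Between the DNMT1i groups, deviations of same-numbered libraries correlated at 0.047 to 0.095, under the limit of 0.1. Those of other-numbered libraries correlated at −0.049 to −0.005. Over all groups the ranges were −0.20 to 0.095 and −0.17 to 0.18. These values do not settle whether the cultures were paired. With the replicate block the counts were 656 and 631 under DNMT1i, 574 and 430 in DMSO, and 7 and 25 for the interaction. Of the named genes, calls of DNMT1, VHL, ELOB, CDX2, EPCAM, HOXB4, ITGA5, TNFAIP8, HSPA4L, SNHG17, NEAT1 and TOP2A were lost under at least 1 setting. MAGEB1 and TDRD12 also lacked a call under at least 1 setting. All 8 genes named for the interaction lost that call under some settings, such as MKI67, which kept it in 15 of 18. None of the named genes that passed the test changed direction. MYC, which did not pass, ranged between −0.05 and 0.04 on the log2 scale. Genes of low CPM rest on few counts at this depth, and their fold changes carry counting error beside the spread between cultures. A gene near the floor in either group of a comparison met the filter on low counts through the other, and its p-value is given as a description.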

Other observations

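Beyond the unfolded protein response, 3 further lists of the secretory pathway were drawn up after its values were seen, so they are described without a test of the lists. Of 23 genes of the COPII coat and exit from the endoplasmic reticulum, 17 rose and 0 fell with HaloPROTAC3 and DNMT1i against DNMT1i alone (median log2 fold change 0.41), and in DMSO 13 rose and 1 fell (median 0.31). LMAN1, a cargo receptor for glycoproteins, gave 0.80 ± 0.08. Of 23 genes of the translocon and of signal peptide processing, 18 rose and 0 fell (median 0.53), and in DMSO 13 rose and 1 fell (median 0.25). SSR3, a subunit of the translocon-associated complex, had 509, 549 and 501 CPM with HaloPROTAC3 and DNMT1i, against 266, 277 and 251 CPM with DNMT1i alone, and its log2 fold change was 0.97 ± 0.07 (adjusted p = 1.26e-11, edgeR). Of 20 tested genes of N-glycan transfer, 10 rose and 0 fell (median 0.33), and in DMSO 6 rose and 3 fell (median 0.06). The shares over all genes tested were 12.2% for increases and 10.1% for decreases under DNMT1i, and 10.1% and 7.28% in DMSO.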
